A study of Homo sapiens with 15 samples.

Results

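The genes described are 37 genes of glycolysis and of the transcriptional response to low oxygen. They were chosen by name, from a list of 15 glycolytic enzymes, 2 lactate dehydrogenase subunits, 3 transporters, 3 regulators of glycolytic flux, 3 genes of oxygen sensing and 11 other hypoxia-responsive genes. The choice was made with earlier results of these data known. All 37 were found, each on 1 row, among 57905 genes in the deposited table, and all 37 passed the low-value filter that left 17214 genes for testing. They were followed in 12 RNA sequencing libraries of SW480 cells, a line from a human colorectal adenocarcinoma, whose cell type is labelled as intestinal epithelium. There were 4 groups of 3 libraries. PINT shRNA1 with LPS held cells with a lentiviral short hairpin RNA against the long non-coding RNA PINT, exposed to lipopolysaccharide (LPS, from the outer membrane of Gram-negative bacteria) at 1 µg/ml for 4 h. LPS held cells with no hairpin named and the same exposure. PINT shRNA1 held hairpin cells and control held cells with no hairpin named, both without LPS, where the protocol gives phosphate-buffered saline for 4 h. All cells were grown in the same medium with serum. The labels record no oxygen level for any group, and none of the groups used here carries a non-targeting hairpin. The hairpin and the lentivirus that carried it therefore cannot be told apart. Whether replicates came from separate cultures is not in the labels, and the p-values therefore reflect the spread of these libraries alone, which may be technical.

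Glycolysis turns glucose into pyruvate in the cytosol, and lactate dehydrogenase then converts pyruvate to lactate, which monocarboxylate transporters carry out of the cell. Many of these genes are induced by hypoxia-inducible factor (HIF), a transcription factor whose alpha subunit is hydroxylated by the EGLN prolyl hydroxylases when oxygen is present and is then degraded through VHL. Colorectal cancer cells commonly keep a high rate of glycolysis in air, and NF-kB, the factor that LPS activates, is known to bear on transcription of HIF1A.

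The labels and the libraries were checked first. LINC-PINT, the gene of the targeted RNA, was at 4.55, 5.26 and 5.34 FPKM in PINT shRNA1 libraries and 2.88, 2.56 and 2.51 FPKM in control libraries, and at 3.54, 4.00 and 4.08 FPKM in PINT shRNA1 with LPS and 2.40, 2.82 and 1.91 FPKM in LPS libraries. FPKM counts fragments by transcript length, scaled to the fragments mapped in the library. The gene was thus higher where the label names a hairpin that targets it, with a log2 fold change of 0.81 ± 0.118 (SE) against control (limma, adjusted p = 5.92e-04). An exact permutation test of 3 against 3 libraries gave a two-sided p of 0.1 for either comparison, the smallest that this design allows. The hairpin groups are therefore named by their labels only, as libraries labelled PINT shRNA1, and no direction below stands for a loss of PINT. Absolute depth is unknown. Taking control replicate 1 as 1, the relative depth read from low values spanned 1.3 to 1.51 for PINT shRNA1 with LPS, 0.848 to 0.858 for LPS libraries, 0.914 to 1.05 for PINT shRNA1 and 0.809 to 1 for control. Genes above 0 FPKM numbered 30950 to 31961 in PINT shRNA1 with LPS and 27078 to 27425 in LPS libraries. They numbered 30725 to 31159 in PINT shRNA1 and 27536 to 28430 in control, where the ranges of relative depth overlapped. This number moved with the hairpin label, and its part in the results was not tested. All 10 epithelial markers were detected, and their summed level was 1597 to 1666 FPKM in PINT shRNA1 with LPS, against 2428 to 2471 FPKM in LPS libraries, and 1498 to 1599 FPKM in PINT shRNA1, against 2398 to 2734 FPKM in control. This sum, which KRT8, KRT18 and KRT19 dominate, moved with the hairpin label, as many of the glycolysis and hypoxia genes did, and its part in the results was not tested. The 10 markers did not move as 1: in PINT shRNA1 against control 5 fell (KRT8, KRT18, KRT19, EPCAM and VIL1), CDX2 rose by 0.38 ± 0.0959 and 4 were not called. In PINT shRNA1 with LPS against LPS 6 fell (the same 5 and CLDN4), CDX2 rose by 0.62 ± 0.0959 and 3 were not called. CLDN7 was among these 3, at -0.034 ± 0.121. The adjusted p of CDX2 was 0.0139 without LPS and 8.32e-04 with it (limma). Of all 17214 genes tested, 16.9% were called higher and 10.3% lower in PINT shRNA1 against control. In PINT shRNA1 with LPS against LPS these shares were 17.7% and 11.6%. Of 12 leukocyte markers 5, including PTPRC and CD3D, stayed below 0.1 FPKM in every library, and FCGR3A was listed at 0. The 12 leukocyte markers summed to 3.92 to 4.54 FPKM in PINT shRNA1 with LPS, against 3.24 to 4.19 FPKM in LPS libraries, and to 3.82 to 5.22 FPKM in PINT shRNA1, against 3.2 to 4.17 FPKM in control. Of the 12 leukocyte markers 3 were tested, and CD68 rose by 0.64 ± 0.121 and 0.63 ± 0.121 in these 2 comparisons (adjusted p = 0.00295 and 0.00285). Of 12 fibroblast and endothelial markers listed 11 were found, which summed to 2.93 to 3.31 FPKM in PINT shRNA1 with LPS, against 4.15 to 4.22 FPKM in LPS libraries, and to 2.81 to 3.09 FPKM in PINT shRNA1, against 3.77 to 4.51 FPKM in control. Of the 2 tested, ACTA2 averaged 1.61 FPKM in PINT shRNA1 and 3.34 FPKM in control and fell in both comparisons, while COL1A1, at 0.836 FPKM in PINT shRNA1 and 0.495 FPKM in control, was not called. In bulk libraries, fewer cells that express a gene and less RNA per cell cannot be told apart.

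SW480 libraries held glycolytic transcripts at very different levels from step to step. GAPDH, which oxidises glyceraldehyde 3-phosphate, was the most abundant of the 37 genes, at a mean of 1524 FPKM over the 12 libraries and rank 21 of all genes. ENO1, the main enolase, followed at 712 FPKM, then LDHA at 494, PKM (pyruvate kinase) at 424 and LDHB at 416 FPKM. In all, 12 members averaged at least 100 FPKM: these 5 and TPI1, SLC2A1, SLC2A3, ALDOA, PGK1, GPI and PGAM1. The genes of the hexokinase and phosphofructokinase steps were far lower. Hexokinase genes HK1 and HK2 averaged 28.7 and 16.1 FPKM, and the phosphofructokinase genes PFKP, PFKM and PFKL averaged 29.1, 26.7 and 20.5 FPKM. The lowest members were PFKFB3 at 3.45, ALDOC at 2.58 and BNIP3 at 0.516 FPKM. BNIP3, a mitophagy receptor gene that is strongly induced by hypoxia in many cells, ranked 15960 among all genes and lay below 1 FPKM in all 12 libraries. BNIP3L, its paralog with a similar role, averaged 38.0 FPKM. Neighbours in this order often overlapped: PKM had 441, 428 and 467 FPKM in control libraries and LDHB had 419, 429.6 and 419 FPKM. PFKM likewise overlapped both HK1 and PFKP there, at 25.0 to 28.7 FPKM for PFKM, 28.3 to 29.6 FPKM for HK1 and 25.1 to 27.0 FPKM for PFKP. The 37 genes together made up 1.33% to 1.38% of all FPKM in PINT shRNA1 with LPS, against 1.31% to 1.34% in LPS libraries, and 1.37% to 1.42% in PINT shRNA1, against 1.32% to 1.37% in control. Several of the abundant genes have processed pseudogenes in the table, whose reads the counting could have split. Summed pseudogene FPKM came to 2.25% of the level of LDHA, 1.81% for ENO1 and 0.159% for GAPDH, while for BNIP3 it was 52.6%, so BNIP3 is uncertain.

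**Figure D1:**
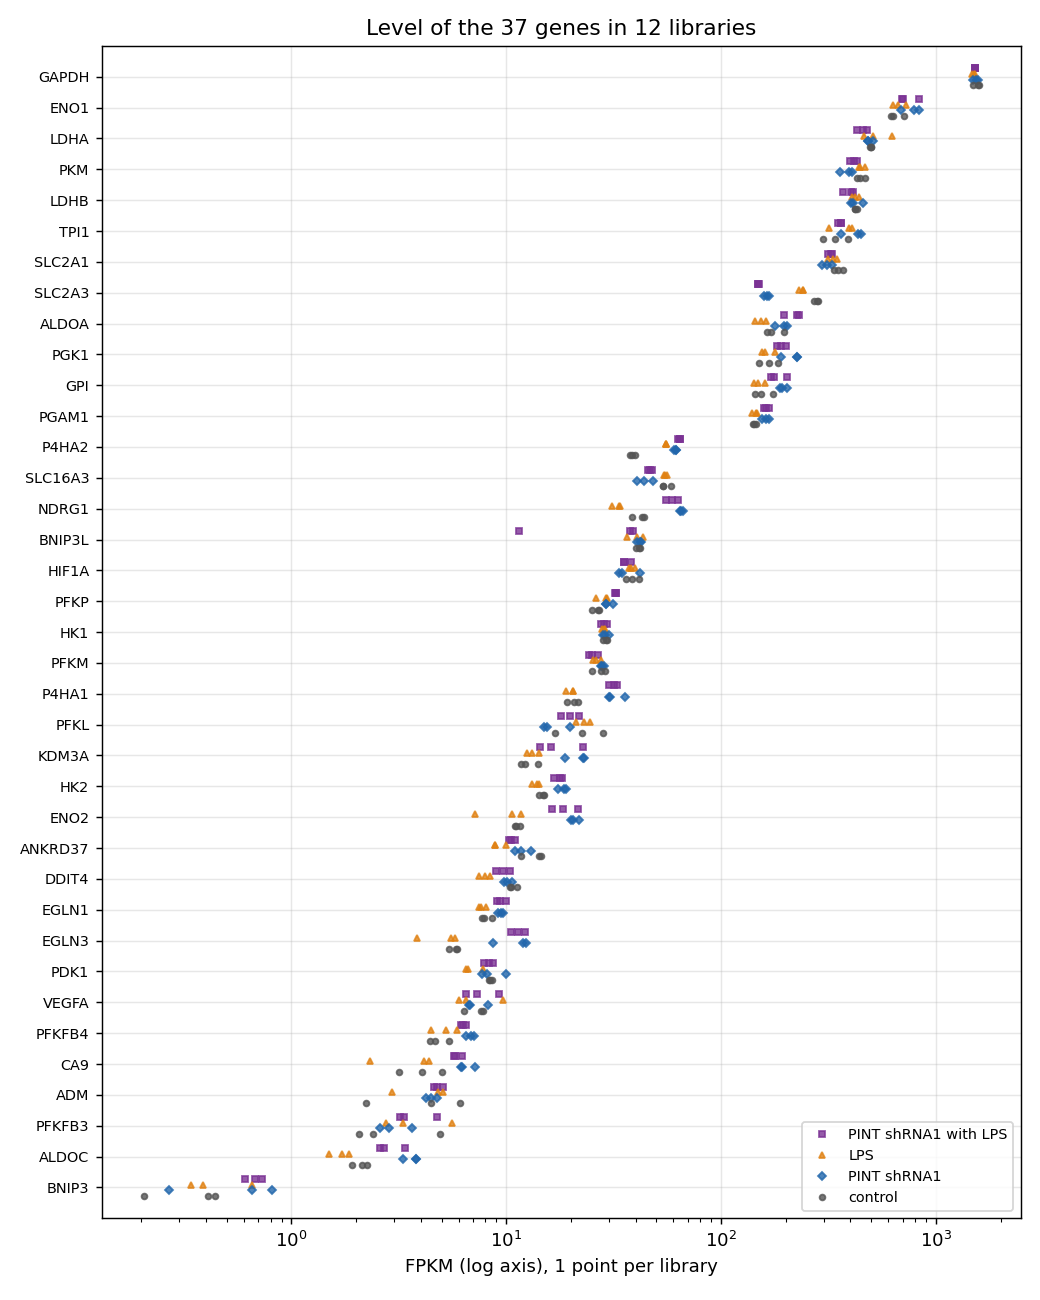
FPKM (horizontal log axis) of the 37 genes, 1 point per library, with the groups as colours from top to bottom within each gene and genes ordered by their mean. The genes span GAPDH at a mean of 1524 FPKM to BNIP3 at 0.516 FPKM, and SLC2A3, NDRG1, P4HA1, P4HA2 and EGLN3 show hairpin-labelled libraries apart from control.

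Promoter sequences are shown for 8 members with a single promoter in the RefSeq table (GRCh38.p14), because HIF binds a 5-base core, ACGTG or GCGTG. They were chosen after their values were seen. The 250 bases before each start site were searched on both strands for these letters. Capitals mark the matches, which overlap within CACGTG because that run reads the same on both strands. EGLN3, ENO2, ALDOC, P4HA1 and CA9 are shown because each rose by at least 0.62 (log2, CA9 and ALDOC being lowest) in both comparisons of libraries labelled with the hairpin. P4HA2, ANKRD37 and DDIT4 are shown because they changed with LPS.
EGLN3 (chr14:33951075-33951324, minus strand): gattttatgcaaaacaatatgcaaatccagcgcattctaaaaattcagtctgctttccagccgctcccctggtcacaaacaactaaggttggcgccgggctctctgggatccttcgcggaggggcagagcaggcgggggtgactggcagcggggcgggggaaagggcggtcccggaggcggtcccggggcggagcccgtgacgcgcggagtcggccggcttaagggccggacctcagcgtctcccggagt
ENO2 (chr12:6914330-6914579, plus strand): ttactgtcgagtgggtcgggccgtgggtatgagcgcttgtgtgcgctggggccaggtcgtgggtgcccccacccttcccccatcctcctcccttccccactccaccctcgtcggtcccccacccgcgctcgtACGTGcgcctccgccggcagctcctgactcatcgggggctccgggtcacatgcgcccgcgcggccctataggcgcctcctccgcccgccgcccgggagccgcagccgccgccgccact
ALDOC (chr17:28576896-28577145, minus strand): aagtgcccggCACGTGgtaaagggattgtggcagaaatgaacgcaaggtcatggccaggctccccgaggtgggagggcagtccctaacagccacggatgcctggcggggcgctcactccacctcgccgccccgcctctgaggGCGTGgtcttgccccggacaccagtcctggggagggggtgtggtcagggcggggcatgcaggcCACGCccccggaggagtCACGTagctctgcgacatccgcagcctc
P4HA1 (chr10:73096867-73097116, minus strand): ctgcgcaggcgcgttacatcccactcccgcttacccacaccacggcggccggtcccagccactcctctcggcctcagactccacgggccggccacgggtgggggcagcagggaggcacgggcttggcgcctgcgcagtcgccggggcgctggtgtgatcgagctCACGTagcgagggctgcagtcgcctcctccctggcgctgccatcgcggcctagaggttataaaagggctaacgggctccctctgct
CA9 (chr9:35673678-35673927, plus strand): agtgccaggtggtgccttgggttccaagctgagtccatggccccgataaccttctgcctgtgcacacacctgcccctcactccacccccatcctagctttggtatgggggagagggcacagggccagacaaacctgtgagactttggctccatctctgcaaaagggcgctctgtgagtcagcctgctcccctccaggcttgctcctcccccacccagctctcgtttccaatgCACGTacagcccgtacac
P4HA2 (chr5:132227092-132227341, minus strand): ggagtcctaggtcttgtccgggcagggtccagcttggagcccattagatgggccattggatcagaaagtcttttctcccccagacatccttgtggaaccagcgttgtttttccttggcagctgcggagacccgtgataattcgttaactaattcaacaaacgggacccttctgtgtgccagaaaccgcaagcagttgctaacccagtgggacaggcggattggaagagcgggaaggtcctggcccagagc
ANKRD37 (chr4:185396591-185396840, plus strand): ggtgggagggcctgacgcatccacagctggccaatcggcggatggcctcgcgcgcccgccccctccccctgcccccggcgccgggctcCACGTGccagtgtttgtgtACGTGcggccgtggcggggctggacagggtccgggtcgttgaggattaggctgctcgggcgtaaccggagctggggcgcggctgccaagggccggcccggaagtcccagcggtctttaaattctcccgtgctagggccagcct
DDIT4 (chr10:72273674-72273923, plus strand): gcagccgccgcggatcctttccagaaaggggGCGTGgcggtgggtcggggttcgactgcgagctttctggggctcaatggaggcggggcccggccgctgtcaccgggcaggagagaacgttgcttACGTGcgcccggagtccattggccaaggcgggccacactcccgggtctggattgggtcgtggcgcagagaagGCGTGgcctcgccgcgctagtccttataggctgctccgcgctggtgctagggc

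ALDOC held 5 matches in this window, and ANKRD37 and DDIT4 held 3 each. ENO2, P4HA1 and CA9 held 1 each, that of CA9 starting 18 bases before its start site. EGLN3 and P4HA2 held none of these letters in this window, which says nothing of sites elsewhere. Of the 33 members with a promoter in the table, 27 (81.8%) had a match in at least 1 of their promoters, beside 47.4% of all 27305 genes there. Counted by promoter, the shares were 59% of 61 for the members and 43.2% of 35116 in all. The NF-kB consensus decamer occurred in none of the 8 windows printed, and in 14.8% of the members' 61 promoters beside 9.96% of all promoters. These matches describe letters, not bound sites.

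Libraries labelled with the hairpin differed from those without it in many glycolysis and hypoxia genes, as in many other genes, both without and with LPS. Against control, 15 of the 37 rose and 4 fell in PINT shRNA1 libraries, with a median log2 fold change of 0.16. Of all 17214 genes tested, 27.3% were called in this comparison (an adjusted p under 0.05 in limma), 16.9% higher and 10.3% lower, and their median was 0.057. Against LPS, 14 rose and 2 fell in PINT shRNA1 with LPS, with a median of 0.19, where 29.2% of all genes were called, 17.7% higher and 11.6% lower, with a median of 0.053. The groups did not overlap for 15 members higher and 4 lower in PINT shRNA1 against control, beside 41.3% of all genes, and for 19 higher and 3 lower in PINT shRNA1 with LPS against LPS, beside 45.7%. Abundant genes were called more often. Of those averaging 10 FPKM or more, 35.7% were called in PINT shRNA1 against control and 37% in PINT shRNA1 with LPS against LPS, beside 14 and 11 of the 26 members at that level. At 100 FPKM or more, 41.5% and 40.2% of genes were called in these 2 comparisons, beside 6 and 4 of the 12 members there. Those counts lie near the shares of all such genes and are no result about the most abundant members. These 2 comparisons share no library, but the same fit gave the spread for both. Among the members 12 rose in both (12 of 15 and 12 of 14), while SLC2A3 and SLC16A3 fell in both. The share of all genes that rose in both was not counted, so this overlap is no result about the members. Fold changes below are log2 differences ± SE of values with 0.5 FPKM added, so changes of low genes are understated, and every adjusted p is from limma with Benjamini-Hochberg adjustment over 17214 genes.

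All 3 transporters fell in PINT shRNA1 against control, and 2 of them, SLC2A3 and SLC16A3, fell in PINT shRNA1 with LPS against LPS. SLC2A3, the high-affinity glucose transporter GLUT3, was at 166, 158 and 163 FPKM in PINT shRNA1 libraries, against 284, 278 and 271 in control libraries. Under LPS it was at 149.6, 148 and 149 FPKM in PINT shRNA1 with LPS, against 240.3, 242 and 231 in LPS libraries. The groups did not overlap in either comparison, and the changes were -0.77 ± 0.0319 (adjusted p = 8.22e-08) and -0.67 ± 0.0319 (adjusted p = 2.00e-07). SLC16A3, the lactate exporter MCT4, was at 43.8, 40.4 and 48.3 FPKM in PINT shRNA1 and 58.4, 53.8 and 53.4 in control libraries, a fall of 0.32 ± 0.0600 on the log2 scale (adjusted p = 0.00275). With LPS it was at 46.9, 45.9 and 47.6 FPKM in PINT shRNA1 with LPS and 56.2, 55.0 and 54.4 in LPS libraries (-0.24 ± 0.0600, adjusted p = 0.0130). That second call was lost without the low-value filter (limma, adjusted p = 0.0510). The gene overlaps CSNK1D on the opposite strand, which was not called in either comparison (0.12 ± 0.107 and 0.15 ± 0.107). SLC2A1, the widely expressed glucose transporter GLUT1, was at 311, 295 and 327 FPKM in PINT shRNA1 and 369, 351 and 336 in control libraries (-0.18 ± 0.050, adjusted p = 0.0224). It was not called in PINT shRNA1 with LPS against LPS (-0.034 ± 0.050, adjusted p = 0.656), where the 95% interval of the change was -0.14 to 0.076. The 3 transporters together held 0.120% to 0.129% of all FPKM in PINT shRNA1 libraries and 0.157% to 0.17% in control libraries. The call of SLC2A1 was lost when single libraries were left out. Its adjusted p was 0.0799 without control replicate 1, 0.0522 without control replicate 2, 0.0569 without PINT shRNA1 replicate 1 and 0.0804 without PINT shRNA1 replicate 2. It was also lost without the low-value filter (limma, adjusted p = 0.0883), without the intensity trend (0.0580) and when only the groups compared were fitted (0.0565).

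The enzymes of the upper pathway mostly rose or did not pass the test. HK2, the inducible hexokinase, was at 19.1, 17.5 and 18.6 FPKM in PINT shRNA1 and 15.0, 14.9 and 14.1 in control libraries, and at 17.9, 16.6 and 18.1 in PINT shRNA1 with LPS and 14.2, 13.2 and 14.0 in LPS libraries. It rose by 0.31 ± 0.0550 and 0.34 ± 0.0550 (adjusted p = 0.00189 and 0.00113). HK1, the constitutive hexokinase, had 95% intervals of -0.09 to 0.09 and -0.084 to 0.10 and was not called. GPI, which isomerises glucose 6-phosphate, rose by 0.31 ± 0.0787 and 0.28 ± 0.0787 (adjusted p = 0.0144 and 0.0201). PFKP, the platelet-type phosphofructokinase, rose by 0.18 ± 0.0542 and 0.19 ± 0.0542 (adjusted p = 0.0303 and 0.0211), the smallest changes called among these enzymes beside those of PGAM1. PFKM and PFKL, the muscle and liver types, were not called, while SENP1, which overlaps PFKM on the opposite strand, was at -0.31 ± 0.0701 and -0.34 ± 0.0701 and was called. PFKL ranged from 15.0 to 28.3 FPKM over the 12 libraries. ALDOC, the brain-type aldolase, was at 3.80, 3.80 and 3.32 FPKM in PINT shRNA1 and 2.12, 1.91 and 2.24 in control libraries (0.68 ± 0.109, adjusted p = 0.00115). With LPS it was at 2.70, 3.37 and 2.58 FPKM in PINT shRNA1 with LPS. It was at 1.86, 1.49 and 1.72 FPKM in LPS libraries (0.62 ± 0.109, adjusted p = 0.00166), with no overlap of groups in either case. AC005726.1 overlaps ALDOC on the same strand, at a mean of 1.73 FPKM beside 2.58 FPKM for ALDOC. Its part in the ALDOC values was not tested. ALDOA, the main aldolase, rose in PINT shRNA1 with LPS against LPS (0.50 ± 0.0829, adjusted p = 0.00118), and its value against control was 0.12 ± 0.0829 (adjusted p = 0.324). The difference between these values, which is the interaction, was 0.38 ± 0.117 and was not called (adjusted p = 0.445). GPI lost its call against control at an adjusted p of 0.0540 without control replicate 3 and 0.0523 without PINT shRNA1 replicate 3, and against LPS at 0.0533 without LPS replicate 1, 0.0703 without LPS replicate 2 and 0.0769 without PINT shRNA1 with LPS replicate 2. PFKP lost it against control at 0.0984 without control replicate 1, 0.0516 without control replicate 3 and 0.106 without PINT shRNA1 replicate 1, and against LPS at 0.0668 without LPS replicate 3, 0.0614 without PINT shRNA1 with LPS replicate 1, 0.0590 without PINT shRNA1 with LPS replicate 2 and 0.0510 without PINT shRNA1 with LPS replicate 3. PFKL was called lower in PINT shRNA1 against control (-0.59) at an adjusted p of 0.0129 without control replicate 3.

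In the lower pathway ENO2 stood out by size. ENO2, the neuron-type enolase and a hypoxia-inducible gene, was at 20.4, 20.1 and 21.8 FPKM in PINT shRNA1 libraries, against 11.0, 11.6 and 11.1 in control libraries. In PINT shRNA1 with LPS it was at 21.5, 18.5 and 16.3 FPKM, against 11.7, 7.18 and 10.6 in LPS libraries. The changes were 0.86 ± 0.149 and 0.92 ± 0.149 (adjusted p = 0.00180 and 0.00108), and every library labelled with the hairpin lay above every library without it. LRRC23, which overlaps ENO2 on the same strand, was not called (-0.053 ± 0.197 and -0.23 ± 0.197). PGAM1, phosphoglycerate mutase, rose by 0.17 ± 0.0362 and 0.18 ± 0.0362 (adjusted p = 0.00523 and 0.00382). PGK1, phosphoglycerate kinase, was at 225, 189 and 226 FPKM in PINT shRNA1 and 166, 184 and 150.0 in control libraries (0.36 ± 0.0882, adjusted p = 0.0124) and was not called under LPS (0.21 ± 0.0882, adjusted p = 0.0983). Its call against control was lost without the low-value filter (limma, adjusted p = 0.0680). PKM, pyruvate kinase, went the other way, at 394, 357 and 406 FPKM in PINT shRNA1 and 441, 428 and 467 in control libraries (-0.21 ± 0.0534, adjusted p = 0.0145). Under LPS the groups of PKM did not overlap either, but the change was not called (-0.12 ± 0.0534, adjusted p = 0.110). The table gives 1 value for the gene, so its M1 and M2 isoforms cannot be told apart. GAPDH, often used as a reference gene, differed little: its 95% intervals were -0.084 to 0.055 and -0.046 to 0.093. TPI1, triosephosphate isomerase, and ENO1 were not called, at 0.28 ± 0.112 and 0.23 ± 0.0913 against control (adjusted p = 0.0928 and 0.0823). TPI1 was called against control at an adjusted p of 0.0409 without control replicate 2 and 0.0445 without PINT shRNA1 replicate 3, and ENO1 at 0.0365 without PINT shRNA1 replicate 1. PKM lost its call at an adjusted p of 0.0542 without control replicate 3.

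The 2 lactate dehydrogenase subunits were not called in either comparison. LDHA, the subunit that favours lactate formation and a classical HIF target, was at 509.8, 484 and 481 FPKM in PINT shRNA1 and 495, 500.4 and 498 in control libraries, with an interval of -0.22 to 0.18 for the log2 change. In PINT shRNA1 with LPS it was at 427, 457 and 475 FPKM, against 628, 508 and 461 in LPS libraries, where LPS replicate 1 lay well above the others (-0.22 ± 0.0888, adjusted p = 0.0856). LDHA was called lower there with an adjusted p of 0.0151 without LPS replicate 3. LDHB had a log2 change of 0.0026 ± 0.0541 in PINT shRNA1 against control, with an interval of -0.12 to 0.12. Among the regulators, PFKFB4, whose product makes the phosphofructokinase activator fructose 2,6-bisphosphate, rose by 0.46 ± 0.0968 in PINT shRNA1 (adjusted p = 0.00539), at 6.47, 7.07 and 6.89 FPKM against 4.68, 5.40 and 4.40 in control libraries. It was at 0.26 ± 0.0968 in PINT shRNA1 with LPS against LPS (adjusted p = 0.0629), and was called there at 0.0242 without LPS replicate 2. UCN2 overlaps PFKFB4 on the same strand, at a mean of 1.01 FPKM, and its part in the PFKFB4 values was not tested. PFKFB3, of the same family as PFKFB4, was not called and varied from 2.06 to 4.94 FPKM within control. PDK1, the kinase that holds pyruvate back from mitochondrial oxidation, was at 0.021 ± 0.0955 and 0.24 ± 0.0955 and was not called, except in the second of these at an adjusted p of 0.0382 without LPS replicate 1.

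Oxygen sensing genes did not change as 1 group. HIF1A, the oxygen-regulated HIF subunit, was at 42.1, 34.4 and 33.4 FPKM in PINT shRNA1 and 38.7, 36.1 and 41.7 in control libraries, with an interval of -0.27 to 0.095 for the log2 change, and was not called. Its protein is controlled mainly after translation, which these data do not measure. EGLN3, the HIF prolyl hydroxylase that is itself most responsive to hypoxia, was at 12.4, 8.72 and 11.9 FPKM in PINT shRNA1 libraries, against 5.83, 5.42 and 5.88 in control libraries. With LPS it was at 12.3, 10.5 and 11.4 FPKM in PINT shRNA1 with LPS, against 5.51, 5.76 and 3.85 in LPS libraries. The changes, 0.88 ± 0.151 and 1.12 ± 0.151 (adjusted p = 0.00173 and 3.49e-04), were the largest of the 37 genes in each comparison, and no library labelled with the hairpin overlapped one without it. SPTSSA, which overlaps EGLN3 on the same strand, was at 0.25 ± 0.0574 (adjusted p = 0.00826) and 0.071 ± 0.0574 (adjusted p = 0.395). EGLN1, the main HIF prolyl hydroxylase, rose less, by 0.22 ± 0.0597 and 0.28 ± 0.0597 (adjusted p = 0.0206 and 0.00499). Its call against control was lost at an adjusted p of 0.0669 without control replicate 2, 0.0602 without control replicate 3, 0.0563 without PINT shRNA1 replicate 1 and 0.0633 without PINT shRNA1 replicate 3.

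Of the 11 other hypoxia-responsive genes, 5 rose in PINT shRNA1 against control and 5 in PINT shRNA1 with LPS against LPS, and none fell. NDRG1, a stress-responsive gene strongly induced by hypoxia, was at 66.4, 64.5 and 64.8 FPKM in PINT shRNA1 and 38.5, 42.7 and 43.9 in control libraries (0.64 ± 0.0599, adjusted p = 3.34e-05). With LPS it was at 62.9, 55.7 and 59.1 FPKM in PINT shRNA1 with LPS and 33.6, 33.9 and 31.1 in LPS libraries (0.84 ± 0.0599, adjusted p = 4.20e-06). P4HA1, the alpha subunit of collagen prolyl 4-hydroxylase, was at 35.9, 30.5 and 30.0 FPKM in PINT shRNA1 and 21.5, 19.1 and 20.7 in control libraries, and at 32.9, 30.1 and 31.7 in PINT shRNA1 with LPS and 20.4, 20.5 and 18.9 in LPS libraries. It rose by 0.64 ± 0.0733 and 0.65 ± 0.0733 (adjusted p = 1.39e-04 and 1.04e-04), and the groups of NDRG1 and P4HA1 did not overlap in either comparison. P4HA2, an alternative alpha subunit of the same enzyme, rose by 0.66 ± 0.0332 and by 0.20 ± 0.0332 (adjusted p = 3.47e-07 and 0.00114), and its values are given with the LPS responses. CA9, the membrane carbonic anhydrase IX used as a marker of hypoxic tumours, was at 6.21, 6.13 and 7.16 FPKM in PINT shRNA1 and 5.02, 4.08 and 3.18 in control libraries (0.62 ± 0.197, adjusted p = 0.0369). Under LPS its change was 0.68 ± 0.197 (adjusted p = 0.0236), while ARHGEF39, which overlaps CA9 on the opposite strand, was not called (0.24 ± 0.141 and 0.21 ± 0.141). KDM3A, a histone H3 lysine 9 demethylase gene induced by HIF, was at 18.8, 22.9 and 23.0 FPKM in PINT shRNA1 and 11.8, 12.2 and 14.1 in control libraries (0.74 ± 0.146, adjusted p = 0.00379). It was at 22.7, 14.4 and 16.2 FPKM in PINT shRNA1 with LPS and 13.1, 12.5 and 14.2 in LPS libraries, without overlap but not called (0.39 ± 0.146, adjusted p = 0.0710), and called at 0.0271 without PINT shRNA1 with LPS replicate 2. DDIT4, the mTORC1 inhibitor REDD1, rose by 0.27 ± 0.0677 in PINT shRNA1 with LPS against LPS (adjusted p = 0.0127, but 0.0563 without PINT shRNA1 with LPS replicate 1). Against control DDIT4 was at -0.073 ± 0.0677 (adjusted p = 0.468).

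Other hypoxia genes of the list were not called between hairpin-labelled and other libraries. VEGFA, the vascular growth factor, had log2 changes of -9.4e-04 ± 0.174 and 0.067 ± 0.174, with an interval of -0.38 to 0.38 against control. ADM, the vasodilator peptide adrenomedullin, ranged from 2.24 to 6.08 FPKM within control and was at 0.16 ± 0.274 and 0.18 ± 0.274. BNIP3 was at 0.31 ± 0.207 and 0.30 ± 0.207 at values under 1 FPKM. ANKRD37, a small ankyrin repeat gene that responds to HIF, was at -0.17 ± 0.0894 and 0.19 ± 0.0894 (adjusted p = 0.189 and 0.137), and was called lower against control at 0.0418 without control replicate 3. BNIP3L was at 11.5, 37.8 and 38.7 FPKM in PINT shRNA1 with LPS, against 43.1, 40.6 and 36.3 in LPS libraries, so PINT shRNA1 with LPS replicate 1 stood apart, and its SE was 0.349. CA9 lost its call against control at an adjusted p of 0.0755 without control replicate 2, 0.126 without control replicate 3, 0.0718 without PINT shRNA1 replicate 1, 0.0663 without PINT shRNA1 replicate 2 and 0.110 without PINT shRNA1 replicate 3, and against LPS at 0.0537 without LPS replicate 3, 0.0550 without PINT shRNA1 with LPS replicate 1, 0.0559 without PINT shRNA1 with LPS replicate 2 and 0.0705 without PINT shRNA1 with LPS replicate 3.

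**Figure D2:**
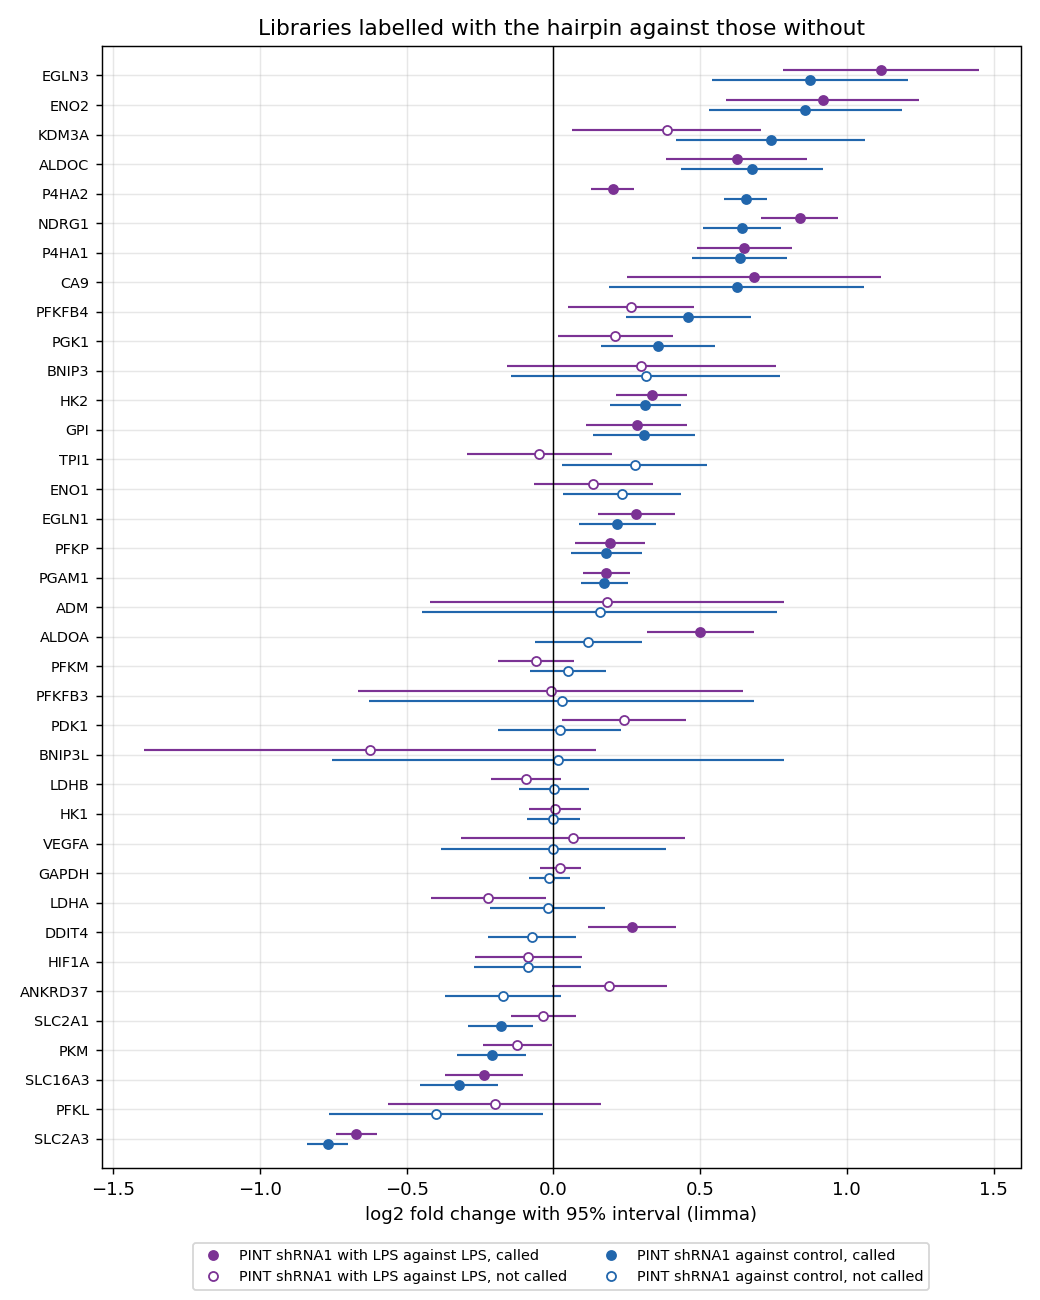
Log2 fold change (horizontal axis) with its 95% interval for the 37 genes, for PINT shRNA1 with LPS against LPS (upper mark of each pair) and PINT shRNA1 against control (lower mark). Filled points passed an adjusted p of 0.05, and EGLN3 lies at the top with 1.12 ± 0.151 and 0.88 ± 0.151 while SLC2A3 lies at the bottom with -0.67 ± 0.0319 and -0.77 ± 0.0319.

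**Figure D3:**
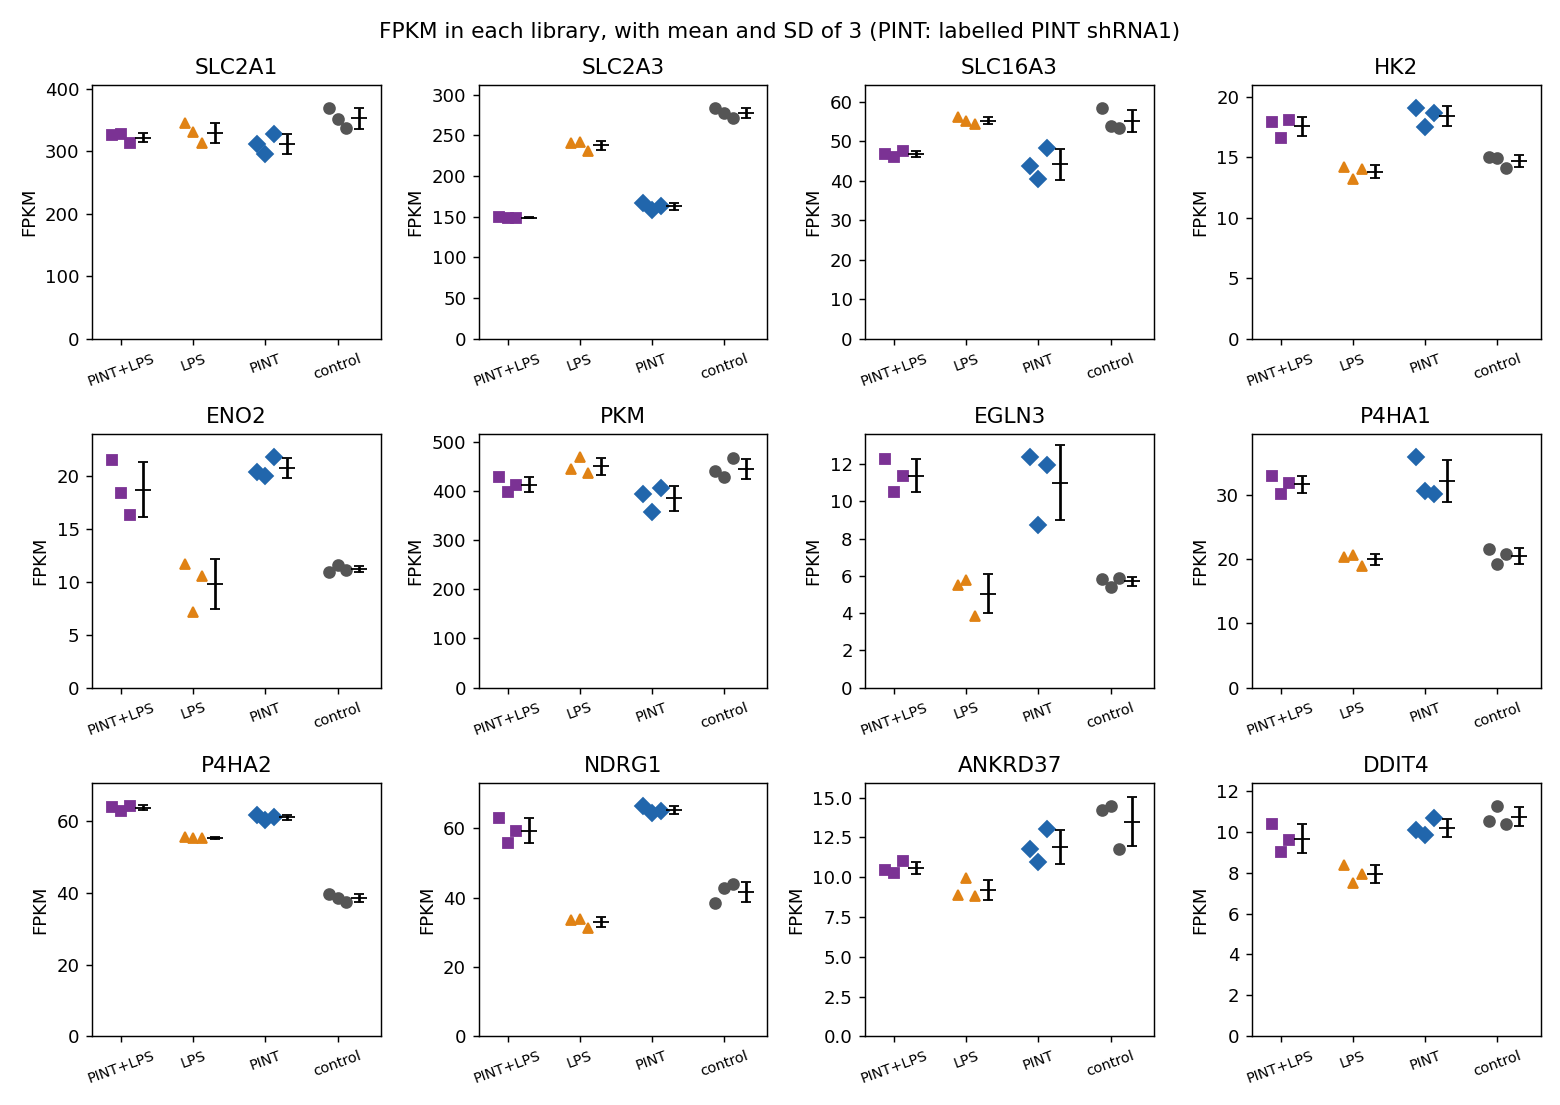
FPKM (vertical axis from 0) of 12 genes in each library of the 4 groups, with the mean and SD of 3 libraries beside the points. SLC2A3 is lowest in the libraries labelled with the hairpin, EGLN3, ENO2, P4HA1 and NDRG1 are highest there, and control stands alone at the bottom for P4HA2.

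Genes that serve the same step did not move alike, so their shares within the step were computed from FPKM, as a description with no test. SLC2A1 made up 65.1%, 65.1% and 66.7% of the glucose transporter pair SLC2A1 and SLC2A3 in PINT shRNA1 libraries, against 56.5%, 55.8% and 55.4% in control libraries. Under LPS its share was 68.5%, 68.8% and 67.8% in PINT shRNA1 with LPS, against 59.0%, 57.7% and 57.6% in LPS libraries. All 6 libraries labelled with the hairpin lay above all 6 without it. EGLN3 made up 53.6% ± 4.29 (SD, n = 3) of the pair EGLN1 and EGLN3 in PINT shRNA1 and 41.5% ± 1.2 in control libraries, and 54.6% ± 0.868 in PINT shRNA1 with LPS and 39.3% ± 4.91 in LPS libraries. The order of the EGLN genes was thus EGLN3 above EGLN1 in 5 of 6 libraries labelled with the hairpin and in 0 of 6 others. HK2 made up 38.8% ± 0.553 of hexokinase in PINT shRNA1 and 33.7% ± 1.21 in control libraries, and 38.1% ± 0.689 in PINT shRNA1 with LPS and 32.7% ± 0.616 in LPS libraries. ENO2 remained a small share of enolase, at 2.63% ± 0.215 in PINT shRNA1 and 1.69% ± 0.150 in control libraries, and ALDOC of aldolase, at 1.87% ± 0.236 and 1.17% ± 0.115. The large fold changes of ENO2 and ALDOC were therefore changes of minor transcripts of their steps. LDHA made up 53.7% ± 0.955 of lactate dehydrogenase in PINT shRNA1 and 54.1% ± 0.269 in control libraries, and these overlapped. The 15 glycolytic enzymes together held 0.957% to 0.983% of all FPKM in PINT shRNA1 and 0.878% to 0.914% in control libraries, and 0.925% to 0.976% in PINT shRNA1 with LPS and 0.879% to 0.906% in LPS libraries. Abundant genes weigh most in such sums. ENO1 and TPI1, neither of them called, averaged 773 and 415 FPKM in PINT shRNA1 and 656 and 343 FPKM in control libraries. PKM, which fell, averaged 386 and 446 FPKM. For the 11 hypoxia-responsive genes the sums were 0.0630% to 0.0640% in PINT shRNA1 and 0.0460% to 0.0469% in control libraries.

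**Figure D4:**
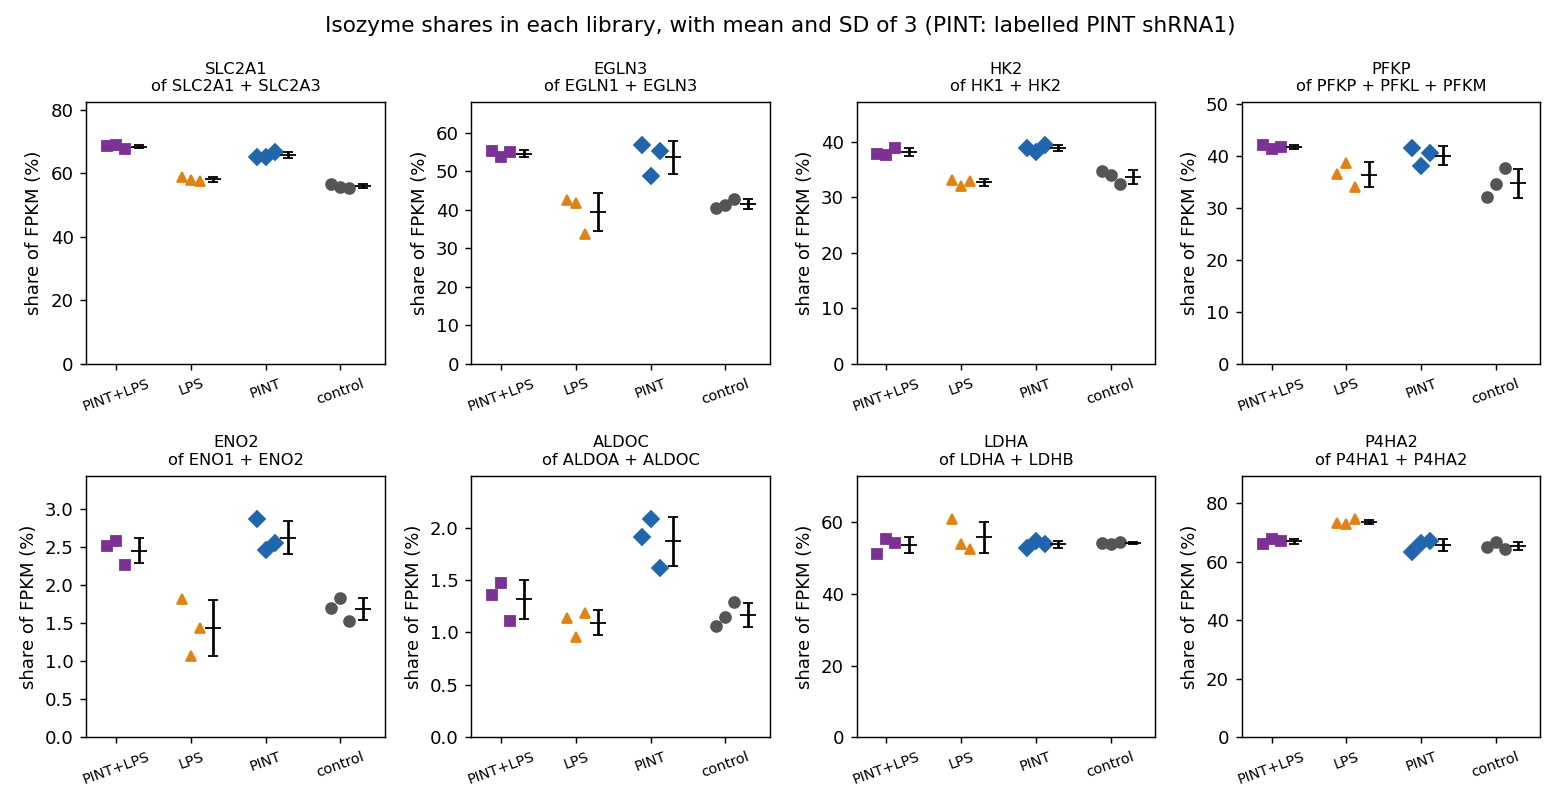
Share (vertical axis, % of the FPKM of the genes named in each panel, from 0) of 1 gene in its step in each library, with the mean and SD of 3. The share of SLC2A1 is above 65% in every library labelled with the hairpin and below 59% in every other library, while LDHA stays between 50.9% and 60.7%.

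The response to 4 h of LPS was small in these genes. In libraries without the hairpin, 1 of 37 rose and 4 fell against control, with a median of -0.029, where 2.76% of all genes were called (1.57% higher and 1.19% lower) and the median of all genes was -0.038. Among libraries labelled with the hairpin, none of the 37 was called by limma between PINT shRNA1 with LPS and PINT shRNA1. There 4 of the 37 members passed an unadjusted p of 0.05 (limma), beside 1508 of all 17214 genes tested. By adjusted p 0.186% of all genes were called, and the median was -0.044 for the members and -0.037 for all genes. The members that fell on LPS without the hairpin were 3 hypoxia-responsive genes and a transporter. ANKRD37 was at 8.89, 9.93 and 8.83 FPKM in LPS and 14.2, 14.5 and 11.8 in control libraries (-0.52 ± 0.0894, adjusted p = 0.0109). DDIT4 was at 8.39, 7.49 and 7.93 FPKM in LPS and 10.5, 11.3 and 10.4 in control libraries (-0.41 ± 0.0677, adjusted p = 0.00847). NDRG1 and SLC2A3, whose values are given above, fell by 0.34 ± 0.0599 and 0.22 ± 0.0319 (adjusted p = 0.0143 and 0.00373). The LPS and control groups of these 4 genes did not overlap, which held for 19.2% of all genes. UFSP2, which overlaps ANKRD37 on the opposite strand, was at -0.026 ± 0.0790 and was not called. NDRG1 lost its call at an adjusted p of 0.0534 without control replicate 2 and 0.0566 without LPS replicate 3. Fitting the LPS and control libraries alone, none of these 4 falls was called, with adjusted p of 0.101 for ANKRD37, 0.0795 for DDIT4, 0.114 for NDRG1 and 0.0579 for SLC2A3.

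In libraries labelled with the hairpin the same 4 genes were at -0.16 ± 0.0894 (ANKRD37), -0.073 ± 0.0677 (DDIT4), -0.14 ± 0.0599 (NDRG1) and -0.13 ± 0.0319 (SLC2A3) for PINT shRNA1 with LPS against PINT shRNA1. Their adjusted p were 0.650, 0.809, 0.538 and 0.242. The groups of NDRG1 and SLC2A3 did not overlap there, which held for 19.3% of all genes. The interaction, the LPS response with the hairpin minus that without it, was 0.36 ± 0.126 for ANKRD37, 0.34 ± 0.0957 for DDIT4, 0.20 ± 0.0847 for NDRG1 and 0.10 ± 0.0451 for SLC2A3. None of these differences was called (adjusted p = 0.521, 0.363, 0.634 and 0.649), so the responses are not shown to differ. HIF1A had intervals of -0.20 to 0.17 for LPS against control and -0.19 to 0.17 for PINT shRNA1 with LPS against PINT shRNA1, so a change of HIF1A mRNA by LPS, if any, lay within these bounds.

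P4HA2 was the member that rose on LPS, and its LPS responses differed. It was at 55.7, 55.3 and 55.3 FPKM in LPS libraries, against 39.8, 38.5 and 37.5 in control libraries, a log2 change of 0.52 ± 0.0332 (adjusted p = 1.28e-05). It was at 64.1, 63.0 and 64.4 FPKM in PINT shRNA1 with LPS, against 61.7, 60.4 and 61.4 in PINT shRNA1 libraries, a change of 0.062 ± 0.0332 that was not called (adjusted p = 0.641). Libraries of a group lay within a few FPKM of each other, and the 4 groups did not overlap. The interaction was -0.45 ± 0.0469 (adjusted p = 0.00265), and P4HA2 was the 1 member called in it, where 0.128% of all genes were called (0.0929% lower). No member was called higher (0.0349% of all genes). In either direction 5 of the 37 passed an unadjusted p of 0.05 (limma), beside 1333 of all 17214 genes tested. P4HA2 overlaps PDLIM4, a cytoskeletal adaptor gene, on the opposite strand, and the sources used here do not say whether strand was used in counting. PDLIM4 was at 0.60 ± 0.129 in LPS against control (adjusted p = 0.0355) and 0.50 ± 0.129 in PINT shRNA1 with LPS against PINT shRNA1 (adjusted p = 0.249), with an interaction of -0.10 ± 0.183 (adjusted p = 0.923). In PINT shRNA1 against control PDLIM4 was at 0.077 ± 0.129 (adjusted p = 0.706), beside 0.66 ± 0.0332 for P4HA2.

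**Figure D5:**
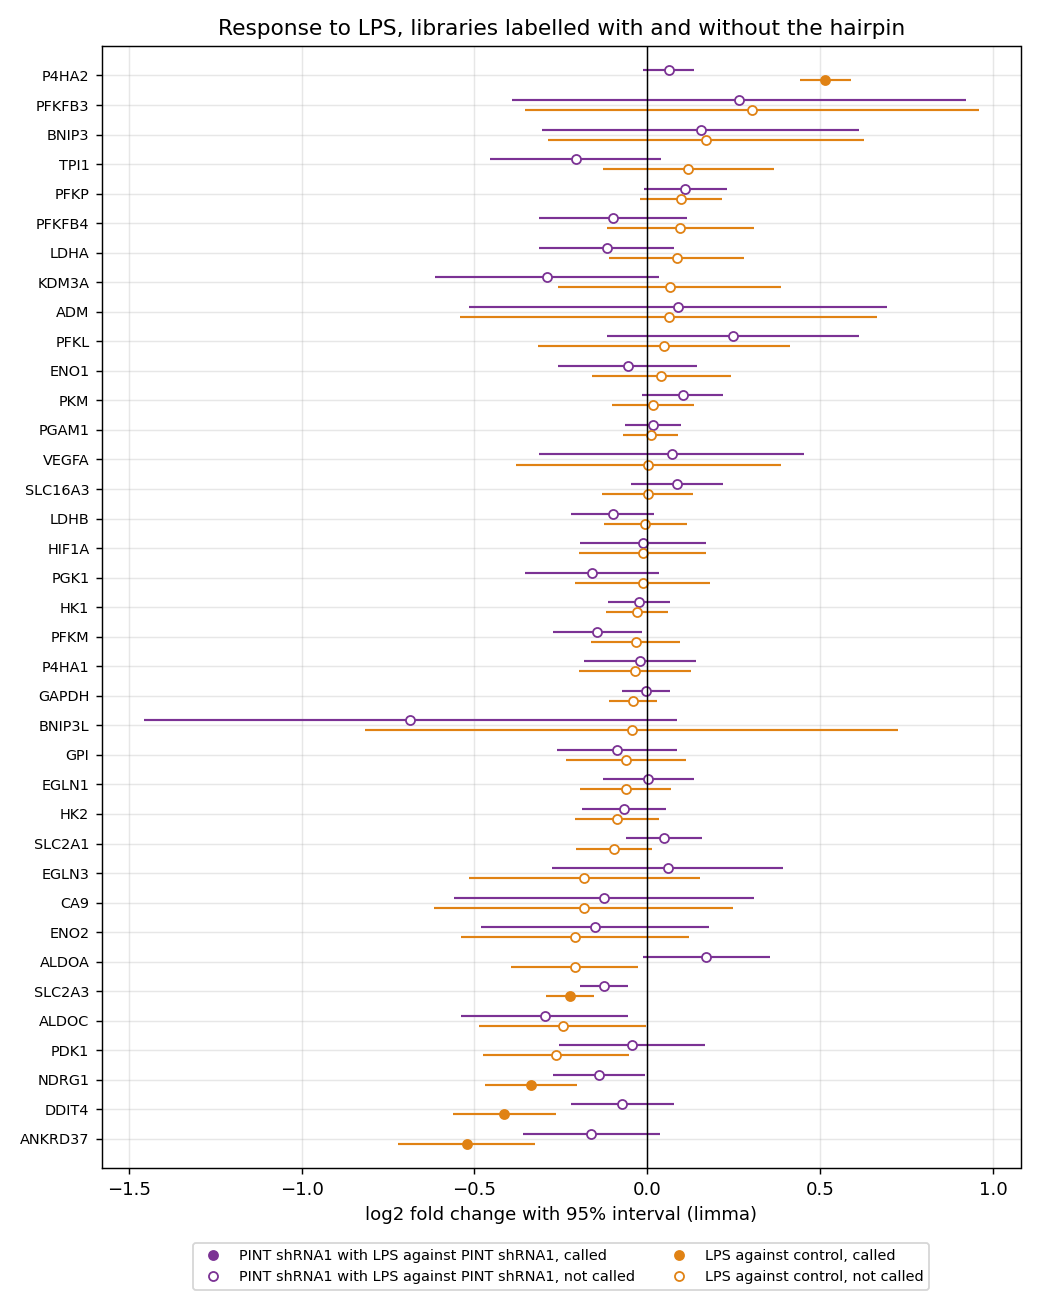
Log2 fold change on LPS (horizontal axis) with its 95% interval for the 37 genes, for PINT shRNA1 with LPS against PINT shRNA1 (upper mark of each pair) and LPS against control (lower mark), filled where called. P4HA2 at the top shows 0.062 ± 0.0332 beside 0.52 ± 0.0332, and ANKRD37, DDIT4, NDRG1 and SLC2A3 are called lower in LPS against control.

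Other genes of the same pathways were counted from lists that hold none of the 37 members. These lists too were chosen with earlier results of these data known, so their counts are no independent check. Of 33 tested genes of glycolysis and pyruvate handling, 7 rose and 7 fell in PINT shRNA1 against control (median -0.027), and 5 rose and 6 fell in PINT shRNA1 with LPS against LPS (median 0.044). These are 42.4% and 33.3% of the list, beside 27.3% and 29.2% of all genes called. G6PC3, a glucose 6-phosphatase, fell by 0.89 ± 0.0731 and 0.65 ± 0.0731 in these 2 comparisons. C12orf5, also called TIGAR, which lowers fructose 2,6-bisphosphate, fell by 0.36 ± 0.0547 and 0.38 ± 0.0547. ADPGK, an ADP-dependent glucokinase, rose by 0.79 ± 0.138 in PINT shRNA1 against control, where SLC2A12, a further glucose transporter gene, fell by 0.64 ± 0.105. ENO3, the muscle enolase, rose by 0.77 ± 0.0788 in PINT shRNA1 with LPS against LPS, and PDP1, the phosphatase that activates pyruvate dehydrogenase, fell by 0.47 ± 0.0431. On LPS without the hairpin PDP1 rose by 0.29 ± 0.0431 and SLC2A6, a glucose transporter family gene, by 0.56 ± 0.0874. These were 2 of 33 genes (6.06%, beside 2.76% of all genes). With the hairpin none of the 33 was called. There 2 of them had an unadjusted p under 0.05 (limma), beside 1508 of all 17214 genes tested. The largest adjusted p among the changes named here was 0.00668 (limma).

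Of 8 pentose phosphate genes 3 rose and 2 fell in both hairpin comparisons, with medians of -0.0087 without and 0.12 with LPS, or 62.5% of a short list beside 27.3% and 29.2% of all genes. PGD, 6-phosphogluconate dehydrogenase, fell by 0.41 ± 0.0441 and 0.33 ± 0.0441 (adjusted p = 8.97e-05 and 3.11e-04), while the transketolase gene TKT rose by 0.23 ± 0.0523 and 0.22 ± 0.0523 (adjusted p = 0.00788 and 0.0105). Of 19 other oxygen-sensing genes 2 rose and 3 fell in PINT shRNA1 against control (median 0.023), and 3 rose and 3 fell in PINT shRNA1 with LPS against LPS (median -0.023). The shares called, 26.3% and 31.6%, lie near the 27.3% and 29.2% of all genes, so the counts are no result about these genes as a list. ARNT, the partner subunit of HIF1A, fell by 0.57 ± 0.129 and 0.47 ± 0.129, and CITED2, which competes with HIF for its coactivators, by 0.45 ± 0.0990 and 0.54 ± 0.0990 (adjusted p at most 0.0186). HIF1A-AS2, an antisense RNA that overlaps HIF1A, fell by 1.08 ± 0.248 and 1.16 ± 0.248 (adjusted p = 0.00854 and 0.00531), at a mean of 1.12 FPKM. ARNTL, also called BMAL1, a clock gene listed here as an ARNT family member, rose by 1.15 ± 0.145 and 1.26 ± 0.145 (adjusted p = 2.52e-04 and 1.18e-04).

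Of 53 further hypoxia-inducible genes 19 rose and 4 fell in PINT shRNA1 against control (median 0.25), and 23 rose and 4 fell in PINT shRNA1 with LPS against LPS (median 0.27), beside the 16.9% and 17.7% of all genes that were called higher. This list was also chosen with earlier results known, so its counts are no independent support for those of the members. TXNIP, which restrains glucose uptake, was at 43.5, 49.7 and 42.3 FPKM in PINT shRNA1 and 23.4, 24.5 and 23.5 in control libraries (0.91 ± 0.0969, adjusted p = 8.29e-05). HMOX1, heme oxygenase 1, rose by 1.47 ± 0.161 and 1.35 ± 0.161, the chemokine receptor gene CXCR4 by 0.71 ± 0.0753 and 0.62 ± 0.0753, and the lipid droplet gene PLIN2 by 0.62 ± 0.0644 in PINT shRNA1 with LPS against LPS. The largest adjusted p among these changes of HMOX1, CXCR4 and PLIN2 was 1.77e-04 (limma). On LPS, 5 of the 53 rose and 1 fell without the hairpin (11.3%, beside 2.76% of all genes), with STC2, the hormone stanniocalcin 2, at 0.26 ± 0.0440 and EDN1, endothelin 1, at 0.53 ± 0.0909 (adjusted p = 0.0109 and 0.0109). With the hairpin 2 of the 53 rose and none fell (3.77%, beside 0.186% of all genes), PLIN2 among them by 0.40 ± 0.0644 (adjusted p = 0.0399). Several of these genes, EDN1 and HMOX1 among them, also respond to signals other than low oxygen.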

How the data were processed

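Strand and read counts are not given in the sources used here. The authors deposited 1 table of FPKM by Ensembl gene. Named without roles in the submitters' processing notes are fastp, the programs StringTie 1.3.4d and HISAT2 2.1.0, and the build GRCh37/hg19. Of its columns 12 were used, and 6 other columns were not used here. The labels list 15 samples, 2 for each RNA number of PINT shRNA1, but the table has 1 column for each number, so these 3 columns were assigned to the group and numbered by RNA number. No pair of columns was identical.

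The 17214 of 57905 genes that reached 0.5 FPKM in 3 or more libraries were tested with limma 3.58.1 (R 4.3.3) on log2 of FPKM plus 0.5, in 1 group-means fit of 12 libraries with an intensity trend. Tests were two-sided, and p-values were adjusted by Benjamini-Hochberg within each contrast over every gene tested. Relative depth is the most frequent ratio of values between 0.01 and 0.3 FPKM; ratios of the 55 other pairs of libraries differed from it by at most 1.15e-05 (log2). The pipeline was tested on simulated data. Overlapping genes were found in GENCODE 29, on another build and used for names only. Promoters are from RefSeq. All 37 members are named; of other lists, up to 4 genes with the smallest p in a comparison. One gene that this rule names is not reported here. Members and lists were chosen with earlier results of these data known.

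Alternatives were a pseudocount of 0.1 or 1, dropping the filter or raising it to 1 FPKM, median, quantile and common-total scaling, no intensity trend, robust moderation, a replicate block, a fit of only the groups compared and omission of each library in turn. Group-specific library weights, and a total that omits mitochondrial genes, were added after the data were seen.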

Additional observations from a re-analysis of the deposited data

Results flagged for a closer look

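P4HA2 was the member whose LPS responses differed by the interaction test. The log2 response was 0.062 ± 0.0332 in libraries labelled with the hairpin and 0.52 ± 0.0332 in those without it (SE), a difference of -0.45 (limma, adjusted p = 0.00265). It remained called in all 24 alternative analyses, between -0.48 and -0.43, with adjusted p of 0.000577 to 0.0291. All 3 LPS libraries lay above all 3 control libraries, and all 3 libraries of PINT shRNA1 with LPS above all 3 of PINT shRNA1.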

How the results depend on the processing

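Of 300 recomputed member counts and LINC-PINT values, 295 stayed the same and 5 moved. A count was the same within 1.5 times of the reported count. A called LINC-PINT value was the same if it kept its sign and call, and an uncalled one if it stayed uncalled within its SE. No called value of a member changed sign in 3695 recomputed member values. Without a filter on low values, 2 members fell in PINT shRNA1 against control and 1 in PINT shRNA1 with LPS against LPS, where more genes are tested. The rises of GPI, PFKP, PGK1 and CA9 against control were also lost there, as were those of GPI, PFKP and CA9 against LPS. With median scaling, 4 fell in PINT shRNA1 with LPS against LPS, PKM and LDHA being added. PFKP then lost its rise in both hairpin comparisons and EGLN1 lost its rise against control. With quantile scaling PFKP and PKM lost their calls against control, and GAPDH was called higher in PINT shRNA1 with LPS against LPS. Without the intensity trend PFKP and SLC2A1 lost their calls against control. When only LPS and control libraries were fitted, 0 members fell on LPS, with fewer libraries behind the spread. Fitting PINT shRNA1 and control alone, PFKP, SLC2A1 and EGLN1 lost their calls (limma, adjusted p = 0.0594, 0.0565 and 0.0635). Fitting PINT shRNA1 with LPS and LPS alone, PGK1 was called higher (limma, adjusted p = 0.0461). Leaving out each library gave 11 to 14 members higher and 3 to 5 lower in PINT shRNA1 against control, 11 to 14 and 2 to 3 in PINT shRNA1 with LPS against LPS, and 3 to 4 lower on LPS. LINC-PINT on LPS then lay between -0.25 and -0.020. Of 19 members called in PINT shRNA1 against control 12 were called in every alternative, as were 11 of 16 in PINT shRNA1 with LPS against LPS and 1 of 5 on LPS. PFKP was the member lost most often.

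Same-numbered libraries did not deviate together: correlations of their deviations were -0.048 to 0.057, and the closest library of another group had the same number in 12 of 36 cases. With the replicate block, 15 members rose and 4 fell in PINT shRNA1 against control and 14 and 2 in PINT shRNA1 with LPS against LPS, as without it. FPKM give no counting error, so depth limits could not be set for genes such as BNIP3 below 1 FPKM.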

Other observations

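BNIP3L in PINT shRNA1 with LPS replicate 1, at 11.5 FPKM, was the lowest of 12 libraries, and the other 11 held 36.3 to 43.1 FPKM. LDHA in LPS replicate 1 was at 628 FPKM, and its other 11 libraries held 427 to 510 FPKM.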
